A study of Mus musculus with 6 samples.

Results

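The genes described here are 10 genes of antigen presentation by major histocompatibility complex (MHC) class I, *H2-K1*, *H2-D1*, *B2m*, *Tap1*, *Tap2*, *Tapbp*, *Psmb8*, *Psmb9*, *Psmb10* and *Nlrc5*. They were listed by name, with earlier results of these data known, and taken from the 49315 genes of the count tables, and each matched 1 gene. RNA-seq was performed on liver cells retained by anti-F4/80 magnetic beads, labelled Kupffer cells, which are macrophages resident in liver. There were 3 WT libraries from Lpcat3 fl/fl mice with LysM +/+ and 3 Lpcat3 KOMac libraries from littermates with LysM Cre/+. LPCAT3 is an enzyme that places polyunsaturated fatty acids in membrane phospholipids, and LysM-Cre removes the floxed gene in myeloid cells, neutrophils included, and not in Kupffer cells alone. Mice of both groups carried the floxed allele on a C57BL/6N background, were 8 to 12 weeks old when the diet began, had 16 weeks of a 60% fat diet and received no other treatment. The comparison asks whether partial loss of *Lpcat3* in macrophages changed these transcripts under a high fat diet. Only the Lpcat3 KOMac group carried LysM-Cre, so effects of the Cre allele and of reduced *Lpcat3* cannot be told apart. Nothing in the sources states that the libraries came from separate mice, so p-values measure the spread between these samples, which may be technical.

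Class I molecules carry short peptides from proteins made inside the cell to its surface, where CD8 T cells read them. The proteasome cuts the proteins, and in immune cells or after interferon its catalytic subunits are replaced by immunoproteasome subunits. The TAP transporter moves peptides into the endoplasmic reticulum, tapasin holds the empty heavy chain beside it, and the loaded heavy chain leaves with beta-2 microglobulin. NLRC5 is the transactivator of the class I genes. Kupffer cells lie in the liver sinusoids, where they meet circulating T cells and can present antigen to them.

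Total assigned counts ranged from 44954224 to 71392812 per library, and a member had between 1741 counts (*Nlrc5*) and 211350 counts (*H2-D1*) in 1 library. Levels are given as TMM-scaled CPM, the count of a gene relative to the scaled size of its library. *Lpcat3* stood at 85.0, 66.2 and 61.2 CPM in WT 1, 2 and 3 and at 19.5, 33.3 and 19.4 CPM in Lpcat3 KOMac 1, 2 and 3, a log2 fold change of -1.56 (SE 0.26), and the groups did not overlap. Its Benjamini-Hochberg adjusted p was 1 by edgeR's quasi-likelihood test and 0.00286 by DESeq2. Kupffer cell markers summed to 29695 to 41311 CPM in WT and 23391 to 32477 CPM in Lpcat3 KOMac, so the labelled cell type was present in every library. The median span of the 8 markers over the libraries was 1.61-fold. *Marco* ran from 148 CPM in Lpcat3 KOMac 2 to 3168 CPM in WT 2, and *Timd4* from 123 to 938 CPM in the same libraries. Libraries also differed in hepatocyte transcripts, whose 5 markers summed to 18594 CPM in WT 1 and 12128 CPM in Lpcat3 KOMac 2 against 1652 to 4217 CPM in the other 4 libraries. Member values, shares and pathway lists are therefore also given without those 2 libraries, a choice made after the data were seen.

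Promoters of class I genes carry a known set of short elements, so the sequences of the heavy chains, the light chain and *Tap1* are shown first. They are RefSeq sequences of GRCm38.p6, 250 bases before to 50 bases after the start of the gene, written 5′ to 3′ on the strand of the gene. Capitals mark, on either strand, AANNGAAA (the core bound by interferon regulatory factors), GGGANTCCC (a core of NF-kappaB sites), TGACG (the core of cyclic AMP response elements) and CCAAT (the box bound by NF-Y). These motifs did not overlap each other in the printed sequences.
The first is *H2-K1*, chr17:34000298-34000597, minus strand.
H2-K1: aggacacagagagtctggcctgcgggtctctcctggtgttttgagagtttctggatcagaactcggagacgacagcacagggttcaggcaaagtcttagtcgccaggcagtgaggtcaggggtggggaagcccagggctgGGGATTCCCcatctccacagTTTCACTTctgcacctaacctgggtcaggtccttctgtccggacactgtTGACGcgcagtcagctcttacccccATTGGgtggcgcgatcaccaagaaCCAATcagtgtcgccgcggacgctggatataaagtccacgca
The next is *H2-D1*, chr17:35262844-35263143, plus strand.
H2-D1: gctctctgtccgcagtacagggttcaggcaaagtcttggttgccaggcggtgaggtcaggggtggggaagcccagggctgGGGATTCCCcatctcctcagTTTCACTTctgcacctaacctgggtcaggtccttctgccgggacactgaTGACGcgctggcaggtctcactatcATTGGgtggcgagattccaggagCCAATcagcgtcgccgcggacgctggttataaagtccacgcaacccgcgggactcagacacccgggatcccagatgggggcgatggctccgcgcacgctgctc
The light chain gene follows, *B2m*, chr2:122147437-122147736, plus strand.
B2m: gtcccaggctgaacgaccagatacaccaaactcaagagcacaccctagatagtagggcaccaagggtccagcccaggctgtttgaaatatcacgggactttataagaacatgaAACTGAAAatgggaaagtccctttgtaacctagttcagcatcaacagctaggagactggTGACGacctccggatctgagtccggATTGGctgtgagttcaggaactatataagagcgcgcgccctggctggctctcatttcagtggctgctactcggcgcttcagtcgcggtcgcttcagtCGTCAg
The last is *Tap1*, chr17:34187306-34187605, plus strand.
Tap1: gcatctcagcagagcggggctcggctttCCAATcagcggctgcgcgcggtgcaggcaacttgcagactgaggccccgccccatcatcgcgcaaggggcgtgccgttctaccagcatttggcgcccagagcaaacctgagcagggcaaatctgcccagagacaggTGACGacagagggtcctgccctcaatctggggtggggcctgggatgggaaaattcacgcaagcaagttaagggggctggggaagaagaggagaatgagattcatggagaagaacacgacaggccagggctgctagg

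Both heavy chain promoters held all 4 motifs, in the same order and over the same strands. Their longest identical run was 47 bases, which is why they are printed together. *B2m* held 3 of the motifs without GGGANTCCC, and *Tap1* held TGACG and CCAAT. RefSeq listed promoters for 8 of the 10 genes, all but *Tap2* and *Nlrc5*, and among these 8 AANNGAAA was in 3, GGGANTCCC in 2, TGACG in 5 and CCAAT in 6. Of 32851 mouse promoters of the same length, 23.9% held AANNGAAA, 0.767% GGGANTCCC, 20.8% TGACG and 37.4% CCAAT. A match describes letters only, and no binding was measured. The *Tap1* window shares 275 bases with that of *Psmb9*, since the genes start 226 bases apart on opposite strands. The TGACG and CCAAT matches of *Tap1* are the same sites as those of *Psmb9*. The counts above include each of these sites for both genes.

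The 2 transporter genes, *Psmb8*, *Psmb9* and *Tapbp* lie with the heavy chains on chromosome 17 (GRCm38), from *Tapbp* at 33915899 to the end of *H2-D1* at 35267499. *Psmb9*, *Tap1*, *Psmb8* and *Tap2* are neighbours between 34181988 and 34216321. *B2m* lies on chromosome 2 (122147686-122153083), and *Psmb10* (105935735-105938444) and *Nlrc5* (94434356-94527272) on chromosome 8. Per kilobase of exon, the mean level over the 6 libraries was 2657 CPM for *B2m*, 1222 CPM for *H2-D1*, 720.03 CPM for *H2-K1* and 101 CPM for *Tapbp*. The other genes followed with 60.6 (*Psmb10*), 55.6 (*Psmb8*), 24.6 (*Tap2*), 20.4 (*Psmb9*), 19.5 (*Tap1*) and 5.57 (*Nlrc5*) CPM per kilobase. The exonic length is the union over isoforms, 3659 bases for *Psmb9* and 3781 for *Tap2*, whose longest coding transcripts have 1352 and 3442 bases. Among the less abundant genes the order can therefore depend on the length used. The ranges over libraries of neighbours in this order overlapped for *Psmb10* and *Psmb8*, *Tap2* and *Psmb9*, and *Psmb9* and *Tap1*, and did not for the rest. Thus the genes of the surface molecule stood highest and the transactivator lowest in every library.

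Of the surface molecule, *H2-D1* had the most negative fold change among the 10. *H2-D1*, a classical heavy chain, stood at 3253, 3599 and 3480 CPM in WT 1, 2 and 3 and at 2984, 2761 and 2835 CPM in Lpcat3 KOMac 1, 2 and 3. Every Lpcat3 KOMac library was below every WT library. The group means were 3444 ± 176 and 2860 ± 113 CPM (SD, n = 3 each), a change of -17.0% (95% interval -28.4% to -3.73%) and a log2 fold change of -0.27 (SE 0.09). The unadjusted p was 0.022 and the Benjamini-Hochberg adjusted p was 1 by the quasi-likelihood test of edgeR, so *H2-D1* did not pass the test.

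*H2-K1*, the other classical heavy chain gene of this strain, stood at 2131, 1850 and 2038 CPM in WT and 1809, 1868 and 1570 CPM in Lpcat3 KOMac. The groups overlapped, because Lpcat3 KOMac 2 was above WT 2. The log2 fold change was -0.20 (SE 0.11, 95% interval -0.46 to 0.07). *B2m*, the light chain common to all class I molecules, stood at 2682, 2290 and 2327 CPM in WT and 2263, 2244 and 1907 CPM in Lpcat3 KOMac. The groups did not overlap, yet the gap between the lowest WT and the highest Lpcat3 KOMac library was small, and the log2 fold change was -0.19 (SE 0.12, 95% interval -0.47 to 0.10). Within libraries *B2m* and *H2-K1* kept nearly the same ratio of counts, 1.14 to 1.26, whereas the ratio of *H2-D1* to *H2-K1* ranged from 1.48 to 1.94. Neither ratio separated the genotypes (exact two-sided permutation p = 0.9 and 0.6, n = 3 each, smallest possible p 0.1). The heavy chains resemble each other in sequence, and 14.3% of the 50-base windows of the *H2-D1* transcript and 8.79% of those of *H2-K1* also occur in other genes. At 100 bases the shares were 4.64% and 0%. Counts of both genes may thus include or lose reads of their relatives, and how reads with several matches were counted is not given in the sources used here.

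**Figure D1:**
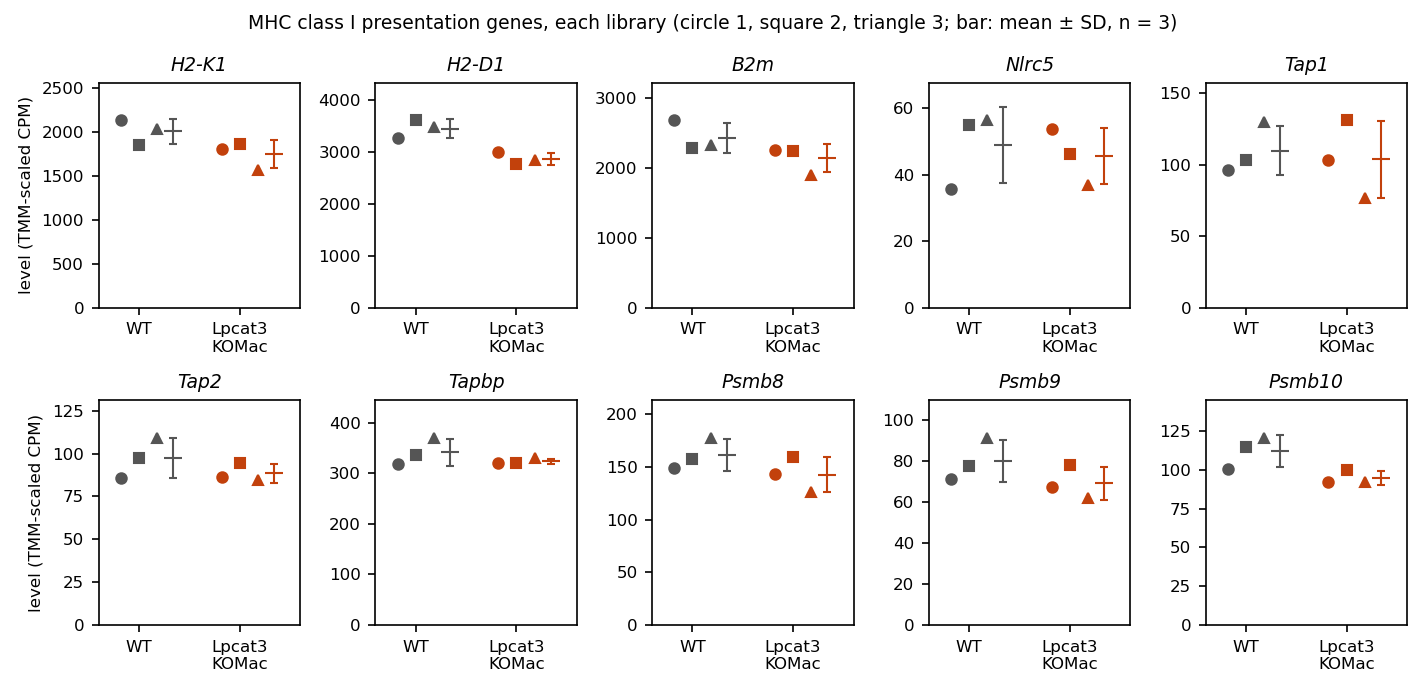
Level of each of the 10 genes in TMM-scaled CPM (y axis, from 0) in WT (grey) and Lpcat3 KOMac (orange) libraries. Circles, squares and triangles are libraries 1, 2 and 3 and the bars are the mean ± SD, n = 3. The groups are separate for *H2-D1*, *B2m* and *Psmb10* and overlap for the other 7 genes.

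Peptide transport and loading genes varied between libraries without separating the genotypes. *Tap1*, a subunit of the peptide transporter, stood at 96.6, 104 and 130 CPM in WT and 104, 131 and 76.7 CPM in Lpcat3 KOMac. Its highest and lowest libraries were both Lpcat3 KOMac, a 1.71-fold span that was the widest of the 10 genes. The 95% interval of the change ran from -35.4% to 37.9%, so neither a moderate increase nor a moderate decrease could be told from no change. *Tap2*, the partner subunit, stood at 85.7, 97.6 and 109 CPM in WT and 86.2, 94.7 and 84.4 CPM in Lpcat3 KOMac. WT 1 lay among the Lpcat3 KOMac libraries, and the log2 fold change was -0.14 (SE 0.11). *Tapbp*, which encodes tapasin, was the steadiest gene, with 319, 336 and 370 CPM in WT and 321, 320 and 330 CPM in Lpcat3 KOMac. Its span over the 6 libraries was 1.16-fold and its log2 fold change was -0.08 (SE 0.09). The ratio of *Tap1* to *Tap2* counts ranged from 0.908 in Lpcat3 KOMac 3 to 1.38 in Lpcat3 KOMac 2, so the 2 subunits did not move in step even within a genotype. *Tap1* and *Psmb9* overlap by 212 exonic bases on opposite strands, and *Tapbp* shares 665 bases with the antisense gene *Gm19412*, which had at most 28 counts. Whether strand was used in counting is not given in the sources used here.

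The 3 immunoproteasome genes had similar profiles. *Psmb8*, which replaces the constitutive subunit *Psmb5*, stood at 149, 158 and 178 CPM in WT and 143, 160 and 126 CPM in Lpcat3 KOMac. *Psmb9*, which replaces *Psmb6*, stood at 71.5, 77.8 and 91.5 CPM in WT and 67.3, 78.0 and 62.1 CPM in Lpcat3 KOMac. Both overlapped, with WT 3 highest and Lpcat3 KOMac 3 lowest, and their log2 fold changes were -0.18 (SE 0.12) and -0.22 (SE 0.13). *Psmb10*, which replaces *Psmb7*, stood at 100.6, 114 and 121 CPM in WT and 92.5, 99.6 and 92.1 CPM in Lpcat3 KOMac. Its groups did not overlap, although WT 1 and Lpcat3 KOMac 2 were nearly level. The log2 fold change of *Psmb10* was -0.24 (SE 0.09, change -0.48% to -28.1% as a 95% interval), with an unadjusted p of 0.045 and a Benjamini-Hochberg adjusted p of 1 by the quasi-likelihood test of edgeR.

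The make-up of the catalytic core was compared by the share of each immunoproteasome subunit in its pair, per exonic base. The size of a share depends on the exonic lengths used, which were the same for every library. *Psmb8* made up 36.8%, 46.3% and 48.3% of *Psmb8* plus *Psmb5* in WT and 44.6%, 43.9% and 40.9% in Lpcat3 KOMac, so the Lpcat3 KOMac values lay inside the WT range. *Psmb9* made up 25.9%, 34.9% and 34.6% of its pair in WT and 29.9%, 32.2% and 29.1% in Lpcat3 KOMac. *Psmb10* made up 68.7%, 77.9% and 79.3% in WT and 75.0%, 74.1% and 75.6% in Lpcat3 KOMac. In all 3 pairs WT 1, the library with the most hepatocyte transcripts, had the lowest share; the part of those transcripts in this was not tested. The differences of the means were -0.63, -1.36 and -0.41 percentage points, smaller than the SD among WT libraries (6.16, 5.10 and 5.74 points), with exact two-sided permutation p = 0.9, 0.8 and 1 (n = 3 each, smallest possible p 0.1). The differences turned on single libraries. Without WT 1 they were -4.14, -4.30 and -3.70 points (exact two-sided permutation p = 0.1, 0.2 and 0.1, smallest possible p 0.1). Without WT 1 and Lpcat3 KOMac 2 they were -4.54, -5.19 and -3.30 points (exact p = 0.333 each, the smallest possible). Without WT 2 they were 0.64, 0.20 and 0.90 points, and without WT 3 they were 1.61, 0.04 and 1.57 points. Without Lpcat3 KOMac 3 they were 0.51, -0.72 and -0.75 points. A shift between immunoproteasome and constitutive subunits was thus not settled by these libraries.

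**Figure D2:**
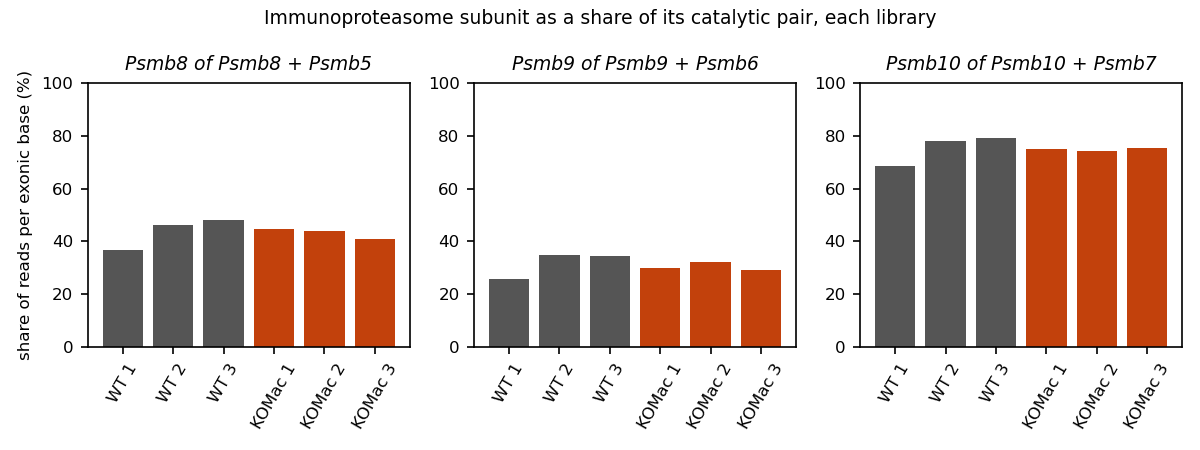
Share (%) of reads per exonic base taken by the immunoproteasome subunit in each catalytic pair (y axis, 0 to 100%), 1 bar per library, WT grey and Lpcat3 KOMac orange. WT 1 has the lowest bar in all 3 panels (36.8%, 25.9% and 68.7%) and the Lpcat3 KOMac bars lie within the WT range.

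*Nlrc5*, the transactivator, stood at 35.7, 54.8 and 56.2 CPM in WT and 53.6, 46.2 and 37.0 CPM in Lpcat3 KOMac. WT 1 and Lpcat3 KOMac 3 were both low, so the groups overlapped fully. The log2 fold change was -0.10 (SE 0.22, 95% interval -0.65 to 0.45). A change in the transactivator itself was therefore not detectable, and its interval was among the widest of the 10 genes.

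None of the 10 genes passed a Benjamini-Hochberg adjusted p of 0.05 in the quasi-likelihood test of edgeR, run over 16134 genes, where 0% of all genes passed. At an unadjusted p under 0.05, 426 genes were found in all, and DESeq2 called 12 genes, none of them among the 10. Fitted log2 fold changes of all 10 genes were negative, from -0.27 to -0.08 with a median of -0.18, but scaling by total counts turned *Tap1* (0.0016) and *Tapbp* (0.01) to just above 0. Among all tested genes 59.9% were negative and the median was -0.04. At an unadjusted p under 0.05, 2 of the 10 genes were lower in Lpcat3 KOMac (*H2-D1* and *Psmb10*), against 1.57% of all genes. Every Lpcat3 KOMac library was below every WT library for 3 of the 10 (*H2-D1*, *B2m* and *Psmb10*), against 5.2% of all genes. With total count scaling both counts were 0 of 10, and leaving out any 1 library other than WT 1 brought the first count to 0; the second count was 6 of 10 both without WT 1, against 15.5% of all genes, and without Lpcat3 KOMac 2, against 9.69%. In bulk RNA a lower level cannot be divided into fewer cells of a type and less RNA per cell.

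**Figure D3:**
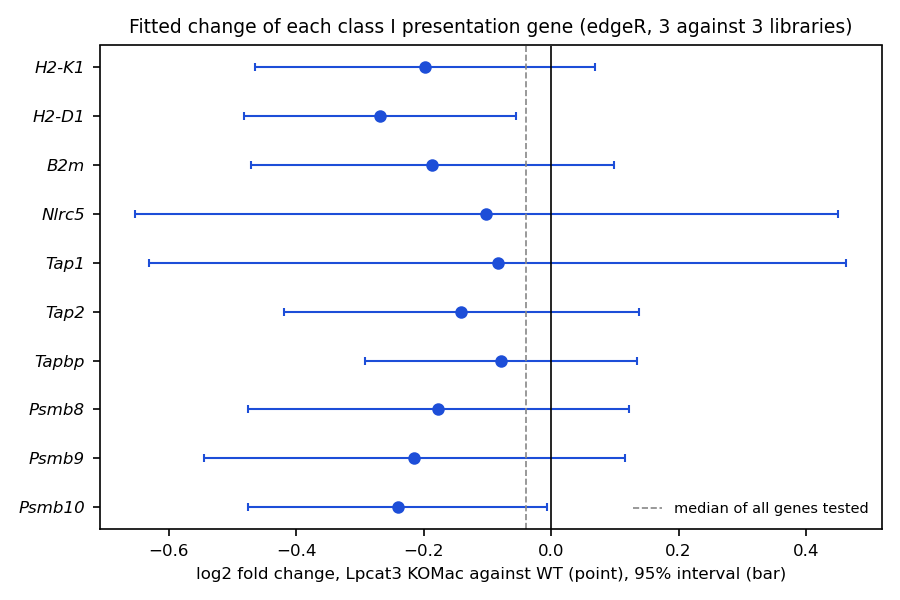
Fitted log2 fold change, Lpcat3 KOMac against WT (x axis), of each gene with its 95% interval from edgeR. All 10 points are left of 0 under TMM scaling (*Tap1* and *Tapbp* just right of 0 under total counts) and 2 intervals, of *H2-D1* and *Psmb10*, do not reach 0; the dashed line is the median of all genes tested, -0.04.

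On the log2 scale, each gene centred on its own mean, the 10 genes averaged -0.03, 0.08 and 0.20 in WT 1, 2 and 3 and -0.05, 0.02 and -0.23 in Lpcat3 KOMac 1, 2 and 3. WT 3 was the highest library and Lpcat3 KOMac 3 the lowest. Leaving out WT 3 or Lpcat3 KOMac 3 left 8 of 10 fold changes negative, with *Tap1* at 0.05 and 0.13 and *Nlrc5* at 0.0092 and 0.06, and brought the median to -0.11 and -0.08. Without Lpcat3 KOMac 3, *H2-K1* went from -0.20 to -0.10, *B2m* from -0.19 to -0.08, *Psmb8* from -0.18 to -0.06 and *Psmb9* from -0.22 to -0.11. Without WT 3, *Tap2* went from -0.14 to -0.05 and *Tapbp* from -0.08 to -0.02, and without WT 1 *Nlrc5* went from -0.10 to -0.28 and *B2m* to -0.11. Only *H2-D1* and *Psmb10* stayed within 1.5 times their value whichever single library was left out. The median high-to-low ratio over the 6 libraries was 1.38-fold for the 10 genes and 1.63-fold for all tested genes.

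**Figure D4:**
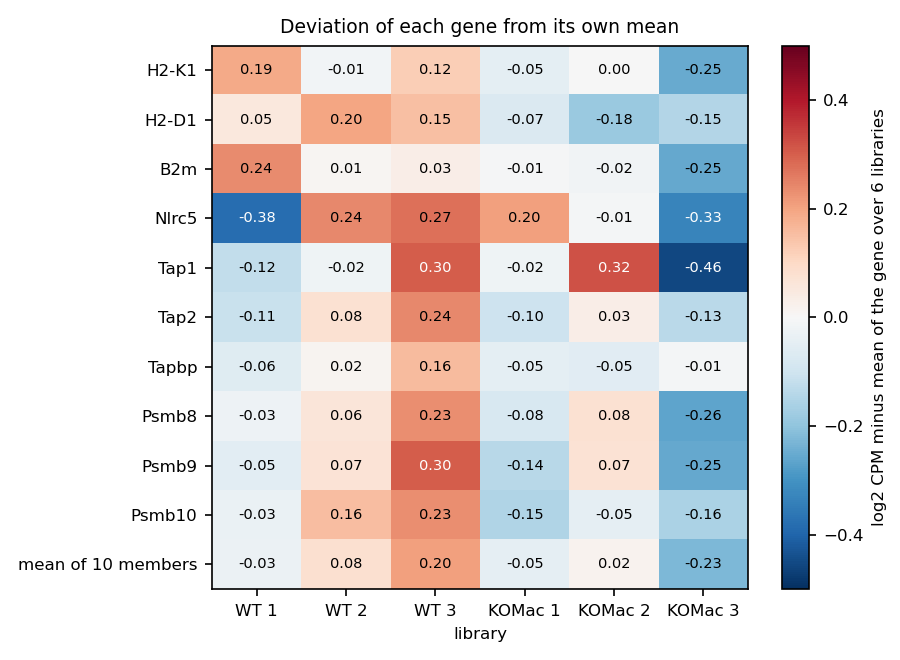
Centred log2 CPM of each gene (rows) in each library (columns), red above and blue below the mean of that gene over the 6 libraries, with the value in each cell. WT 3 is above 0 in all rows and Lpcat3 KOMac 3 below 0 in all rows, while WT 1 is high for *H2-K1* and *B2m* and low for *Nlrc5*.

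WT 1 and Lpcat3 KOMac 2 were the libraries with the most hepatocyte transcripts. Without them, both remaining Lpcat3 KOMac libraries were below both WT libraries for 10 of 10 genes, against 21.4% of all genes. The same held for 29 of 58 tested genes of the other pathway lists, among them 11 of 14 constitutive subunits of the 20S proteasome. By the mean centred profile of the 10 genes, WT 1 (-0.03) was also the lowest WT library and Lpcat3 KOMac 2 (0.02) the highest Lpcat3 KOMac library. Leaving them out therefore widened the gap between the groups for these genes, so the 10 of 10 is a description only. Of 16126 genes tested in this edgeR fit, 376 (2.33%) were lower and 1391 higher at an unadjusted p under 0.05. These 1767 genes compare with 426 over the 6 libraries. Of the 10 genes, 4 were lower at that threshold and 0 were higher. These were *Psmb10* (log2 fold change -0.35, SE 0.08), *Psmb9* (-0.39, SE 0.11), *Psmb8* (-0.32, SE 0.11) and *Tap2* (-0.28, SE 0.09). The smallest adjusted p among the 10 was 0.192 (*Psmb10*) in edgeR's quasi-likelihood test, so none passed. *H2-D1* was at -0.28 (SE 0.12) in this comparison, close to its value over all libraries. Summed hepatocyte markers did not separate the genotypes over the 6 libraries (exact two-sided permutation p = 1, n = 3 each). With hepatocyte transcripts as covariate over the 6 libraries, 9 of the 10 genes were negative, with a median of -0.17. *Nlrc5* was at 0.03, and the smallest adjusted p among the 10 was 0.511 in edgeR's quasi-likelihood test. Whether those transcripts caused any difference in the member values was not tested.

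Outside the 10 genes, 62 genes of the same pathway were counted in 5 lists, and 58 of them were tested. Of these 47 had negative fold changes (81.0%, against 59.9% of all genes), with a median of -0.15 against -0.04. At an unadjusted p under 0.05, 6 were lower, against 1.57% of all genes, and 0 were higher, and 17 had every Lpcat3 KOMac library below every WT library, against 5.2%. None passed the adjusted threshold. Without WT 1 and Lpcat3 KOMac 2, 48 of 58 were negative (82.8%, against 54.2% of all genes) with a median of -0.11, while the median of the 10 genes was -0.29. Among other class I heavy chains, 8 of 14 tested genes were negative (57.1%, against 59.9% of all genes) with a median of -0.06. In 2 of the 14 every Lpcat3 KOMac library was below every WT library, against 5.2% of all genes. *H2-T24* (-0.25, SE 0.10, unadjusted p 0.044 in edgeR) and *H2-T23*, which encodes the Qa-1 molecule read by natural killer cells (-0.26, SE 0.11), did not overlap between groups, while *H2-M3* (-0.23, SE 0.12) and *Mr1*, which presents vitamin B metabolites (0.33, SE 0.15), did. *H2-Q10*, a secreted class I molecule made by hepatocytes, stood at 856, 61.8 and 58.0 CPM in WT and 165, 511 and 188 CPM in Lpcat3 KOMac. It was high in the same libraries as the hepatocyte markers, and its ratio to albumin counts stayed within 0.0439 to 0.0656.

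Chaperones and trimming enzymes of the endoplasmic reticulum were negative in 7 of 7 genes (median -0.15), against 59.9% of all genes. In 2 of the 7 every Lpcat3 KOMac library was below every WT library, against 5.2% of all genes. *Pdia3*, the disulfide isomerase of the peptide-loading complex, stood at 1087, 923 and 1013 CPM in WT and 853, 826 and 812 CPM in Lpcat3 KOMac. Every Lpcat3 KOMac library was lower, and the log2 fold change was -0.28 (SE 0.09, unadjusted p 0.024 in edgeR). *Calr*, the chaperone that holds the heavy chain during loading, also did not overlap (-0.21, SE 0.10), while *Hspa5* (-0.29, SE 0.20) and *Tapbpl* (-0.15, SE 0.10) did.

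Constitutive subunits of the 20S proteasome were negative in 14 of 14 genes, with a median of -0.17, and 7 had every Lpcat3 KOMac library below every WT library, where 59.9% and 5.2% of all genes did so. Without WT 1 and Lpcat3 KOMac 2 all 14 were still negative, with a median of -0.10. *Psma7* (-0.19, SE 0.07) and *Psma6* (-0.23, SE 0.08) had unadjusted p of 0.029 and 0.032 in edgeR, and *Psma3* (-0.19, SE 0.09) and *Psmb2* (-0.18, SE 0.08) came next. Fold changes of the immunoproteasome genes, -0.24 to -0.18 over the 6 libraries, lay beside those of the constitutive core, and were -0.39 to -0.32 without the 2 libraries. Activators and assembly factors were negative in 4 of 4 genes (median -0.19), against 59.9% of all genes. Of the 4, 2 were lower at an unadjusted p under 0.05 in edgeR, against 1.57% of all genes. Every Lpcat3 KOMac library was below every WT library for 3, against 5.2% of all genes. These were *Psme1* (-0.20, SE 0.08) and *Psme2* (-0.18, SE 0.07), which form the PA28 cap induced by interferon gamma, and the assembly factor *Pomp* (-0.21, SE 0.08). *Psme3*, the nuclear relative of that cap, was at -0.01 (SE 0.07).

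Regulators of class I transcription were negative in 14 of 19 tested genes (73.7%, against 59.9% of all genes) with a median of -0.12. Of the 19, 0 had an unadjusted p under 0.05. In 3 of the 19 every Lpcat3 KOMac library was below every WT library, against 5.2% of all genes. *Irf9*, a subunit of the factor that answers type I interferon, was among these, at -0.18 (SE 0.08). The receptor subunits *Ifngr1* (-0.33, SE 0.16) and *Ifnar2* (-0.19, SE 0.10) and the repressor *Irf2* (-0.15, SE 0.08) followed. No test compared a list with the 10 genes.

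**Figure D5:**
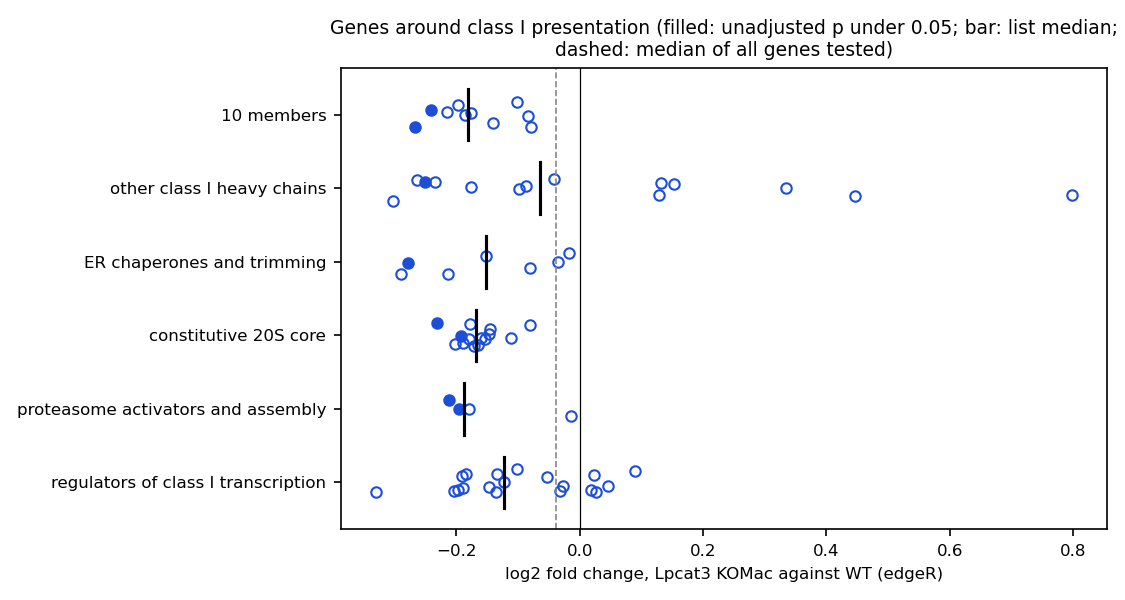
Log2 fold change, Lpcat3 KOMac against WT (x axis), of each tested gene of the 10 members and of the 5 other pathway lists (rows). Filled points have an unadjusted p under 0.05, bars are list medians and the dashed line is the median of all genes. Most points lie left of 0, as did 59.9% of all tested genes. The constitutive 20S core has 14 of 14 genes below 0 and the other heavy chains 8 of 14.

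The genes whose centred profile was nearest to the mean profile of the 10, by root mean square difference over the 6 libraries, were *Ptma* (0.03), *Snrpb2* (0.03), *Rab40c* (0.04), *Rps27a* (0.04) and *Ctss* (0.04), out of 8985 candidates with a median difference of 0.19. *Ctss*, the cathepsin that processes the class II invariant chain, stood at 2734, 2969 and 3101 CPM in WT and 2570, 2628 and 2322 CPM in Lpcat3 KOMac, without overlap. With so many candidates and 6 libraries, close profiles are a description only. Among the 10 genes themselves this difference ran from 0.03 (*Psmb8*) to 0.19 (*Nlrc5*), with *Tap1* at 0.17. Not all of the 10 therefore followed their mean profile closely.

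Markers of other cells were counted beside these results, and their part in them was not tested. All 8 Kupffer cell markers had negative fold changes, against 59.9% of all genes. Their median was -0.23, where that of the 10 genes was -0.18. Among the 8, *Clec4f* (-0.44, SE 0.17) had an unadjusted p under 0.05 in edgeR and groups that did not overlap. Sinusoidal endothelial markers summed to 795 to 909 CPM in WT and 880 to 1063 CPM in Lpcat3 KOMac, with 4 of 5 higher and 1 of them, *Kdr* (0.79, SE 0.27), with an unadjusted p under 0.05. T, NK and B cell markers, from cells rich in class I, summed to 3.80 to 5.71 and 4.53 to 5.77 CPM, close to 0 beside the class I genes. Dendritic cell markers summed to 21.8 to 61.6 and 35.6 to 42.0 CPM, and neutrophil and monocyte markers to 19.7 to 95.5 and 57.3 to 75.1 CPM, with *Ly6g* at or under 3 counts in every library. Most of the neutrophil and monocyte sum came from *Ccr2*, yet all 4 tested markers of that list were positive, and *S100a8*, at 0.72 to 0.87 CPM in WT and 0.95 to 2.19 CPM in Lpcat3 KOMac, did not overlap (0.99, SE 0.36, unadjusted p 0.035 in edgeR).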

How the data were processed

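Poly-A RNA-seq counts were deposited per gene for 3 WT and 3 Lpcat3 KOMac libraries. According to the submitters' processing notes, which name Trimmomatic 0.36, STAR 2.5.2b, featureCounts of Subread 1.5.2 and GRCm38, the authors trimmed, aligned and counted the reads; roles, strand setting, annotation release and treatment of multiply matching reads are not given in the sources used here. The deposited tables also give an exonic length per gene, the union over isoforms, used for levels per kilobase. Gene names were taken from GENCODE M21 for 49056 of 49315 identifiers. Counts were scaled by TMM and tested with edgeR 4.0.16 in R 4.3.3 (filterByExpr, minimum count 10, robust quasi-likelihood fit on genotype, Benjamini-Hochberg adjustment over 16134 genes, 95% intervals). DESeq2 1.42.0, limma 3.58.1 and other scalings, filters, covariates and left-out libraries were alternatives. Single values and ratios were compared by exact permutation. Members and lists were chosen with earlier results of these data known, and motifs after the sequences had been read. All 10 members are named; from each other list, up to 4 tested genes with the smallest unadjusted p were named, and 5 nearest profiles among genes of at least 10 CPM. *H2-Q10*, *Ly6g*, *Clec4f*, *Marco*, *Timd4*, *Kdr*, *Ccr2* and *S100a8* were named after their values were seen. Of the other heavy chains *H2-Q9* matched no gene. Scripts were tested on simulated data. Same-numbered libraries did not deviate together (correlations -0.30, -0.60 and 0.36), so numbers were not taken as pairs.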

Additional observations from a re-analysis of the deposited data

How the results depend on the processing

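The number of genes past an adjusted p of 0.05 was 0 in edgeR under every scaling, filter and covariate and in limma-voom, and 12 in DESeq2, where *Lpcat3* was at -1.55 and passed. Members at an unadjusted p under 0.05 numbered 2, and 0 with total counts, the replicate block or a length offset, 1 with limma-voom or at least 10 counts in every library, 0 to 2 when 1 library was left out and 4 without WT 1 and Lpcat3 KOMac 2. Of all genes, 1.57% were lower at that threshold in edgeR over the 6 libraries and 2.33% without those 2. Members without overlap numbered 3, and 0 with total counts, 3 to 6 when 1 library was left out and 10 without those 2. The share of all genes with Lpcat3 KOMac wholly below WT was 5.2% over the 6 libraries. It was 15.5% without WT 1, 9.69% without Lpcat3 KOMac 2 and 21.4% without both. Signs turned for *Tap1* (0.0016) and *Tapbp* (0.012) with total counts and for *Nlrc5* (0.027) with hepatocyte transcripts as covariate; leaving out 1 library gave -0.27 to 0.13 for *Tap1* and -0.28 to 0.059 for *Nlrc5*, positive without WT 3 or Lpcat3 KOMac 3. The other 153 of 160 member values kept their sign and side of the threshold, though 8 of the 10 genes moved by over 1.5 times when a single library was left out. Leaving out 1 library moved the immunoproteasome share difference from -4.14 to 1.61 (*Psmb8*), -4.30 to 0.198 (*Psmb9*) and -3.70 to 1.57 points (*Psmb10*), lowest without WT 1 in each. The replicate block left 138 genes at an unadjusted p under 0.05 against 426 and the member median at -0.18. Total counts moved the median of all genes by 0.096 to 0.06 and the length offset to -0.12; the causes were not tested.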
